A study of Mus musculus with 12 samples.

Results

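The genes described here encode splicing factors, the proteins of small nuclear ribonucleoproteins (snRNPs) and RNA helicases. They were chosen by symbol from 2 deposited lists of genes that differed between tdTomato- and tdTomato+ group 2 innate lymphoid cells (ILC2s) of the mouse lung. The symbols that were taken begin with Srsf, Srrm, Hnrnp, Sf3, Snrp, Snrnp, U2af or Prpf, or with Ddx, Dhx, Rbm or Lsm followed by a number. This rule found 84 of the 3439 listed genes, of which 83 were listed as lower and 1, Srrm4, as higher in tdTomato+ ILC2s, where 84.5% of all listed genes were listed as lower.

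Both populations were sorted from the lungs of male mice of the genotype TIGIT-Cre-ERT2:Rosa26-LSL-tdTomato that had all been given papain and tamoxifen. In these mice a tamoxifen-dependent Cre is expressed from the Tigit gene, so that cells with TIGIT, an inhibitory receptor of lymphocytes, become permanently red with tdTomato during treatment. Papain is a protease that was given through the nose as an allergen, and the cells were sorted on day 19 as 100 ILC2s per library by their surface markers. The labels give 4 RNA-seq libraries of each population, and nothing in them says whether these came from separate animals. Each population also had 2 ATAC-seq libraries, which were left aside here.

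Most mammalian transcripts are spliced by the spliceosome, which assembles anew on each intron from the U1, U2, U4, U5 and U6 snRNPs and many other proteins. SR proteins and hnRNP proteins bind the transcript and favour or oppose the use of a splice site, whereas ATP-dependent helicases rearrange the RNA between the steps of assembly, catalysis and release. Resting lymphocytes that become activated increase in size, make much more RNA and change the splicing of many transcripts, the receptor tyrosine phosphatase CD45 being the classic example.

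The deposited lists give each gene an average log2 CPM, which is the log2 of counts per 1000000 counted reads, averaged by the authors over the libraries of their comparison. It is not a value of either population, it has no standard deviation or number of replicates, and it is not corrected for gene length. For comparison between genes it was therefore divided by the exonic length, the union of all exons of a gene. Levels per length or per kb are per exonic length unless coding length, that of the longest coding transcript, is named. Ranks of genes and families can differ between these lengths. No list gives the value of a single library, so neither the spread between replicates nor the depth of a library is known, and no test between populations could be made here. A gene is called lower or higher below only because the authors' comparison placed it in that list. In sorted cells analysed in bulk, fewer cells of a kind and less RNA per cell cannot be told apart. Of the ILC2 markers, 14 of 14 were listed, among them Il1rl1, which encodes the receptor of IL-33, Gata3, Il7r and Il2ra, and all 14 were on the list of lower genes with averages between 6.27 and 9.98 log2 CPM. Of the markers of other cells, Cd3g (1 of 6 T cell markers) and Kit (1 of 3 mast cell markers) were listed as lower at 6.12 and 7.59 log2 CPM. None of the 3 B cell, 3 NK cell, 4 macrophage, 3 epithelial and 2 eosinophil markers was listed in either direction. The part of these cells in the results below was not tested.

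With 84.5% of all listed genes on the list of lower genes, a majority of lower genes among the members is also what the lists hold in general. A second background is the annotation, in which 2902 of 21951 protein-coding genes, or 13.2%, were listed as lower. The families that the rule describes have 184 annotated protein-coding genes, of which 83, or 45.1%, were listed as lower, 1 as higher and 100 in neither list. The lists hold only genes with an average above 5 log2 CPM (the lowest listed value was 5.00), so that genes with many reads enter them more readily. A gene in neither list may have been unchanged, too low for the lists or left out of the lists used here, and its direction is unknown.

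The share of a family that was listed as lower ranged widely. It was highest for the hnRNP genes with 18 of 20, followed by the SF3 genes of the U2 snRNP with 6 of 9 and the SR protein genes with 7 of 11. It was intermediate for the DDX helicases with 18 of 37, the PRPF genes with 6 of 13 and the SRRM genes with 2 of 4. It was lowest for the U2AF genes with 1 of 3, the DHX helicases with 5 of 16, the RBM genes with 12 of 39, the LSM genes with 4 of 13 and the snRNP genes with 4 of 19. Each of these shares was above the 13.2% of all protein-coding genes. The cytosolic ribosomal protein genes were listed as lower in 75 of 84 cases and the translation initiation and elongation factors in 36 of 55, so that only the hnRNP genes had a share like that of the ribosomal proteins.

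**Figure D1:**
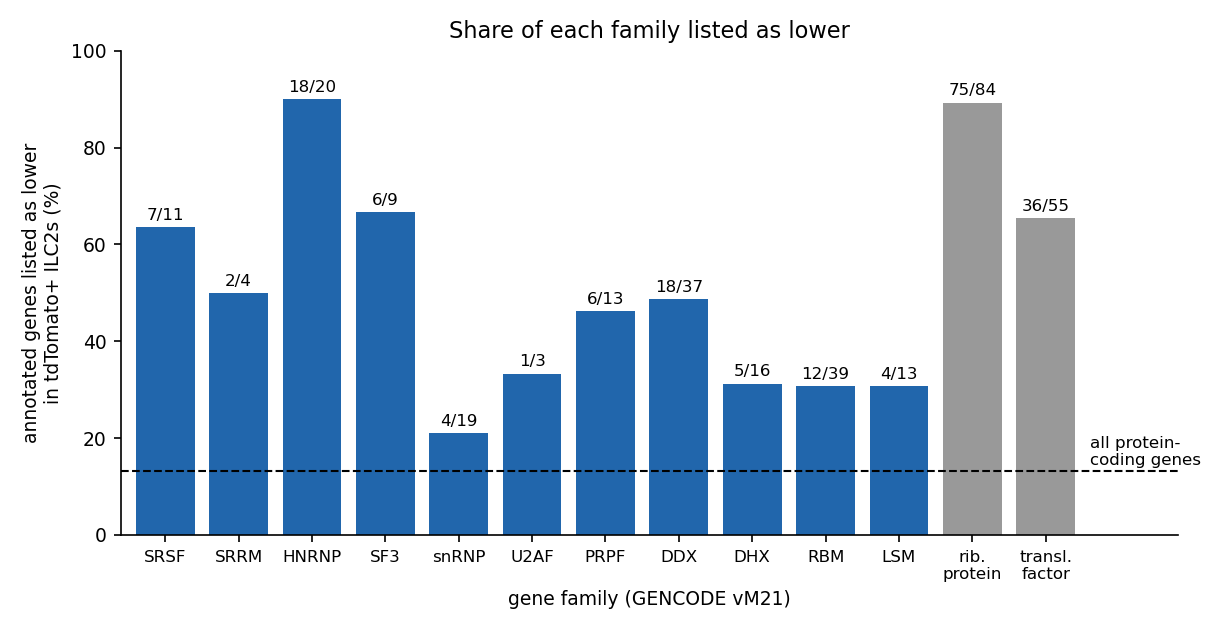
Bars show, for each gene family, the percentage of its annotated protein-coding genes that were listed as lower in tdTomato+ ILC2s, with the counts above each bar; grey bars are the ribosomal protein and translation factor genes. The dashed line marks the 13.2% of all protein-coding genes, and every bar ends above it, from 4 of 19 snRNP genes to 18 of 20 hnRNP genes.

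Short genes were found less often in the lists. Among family genes with a coding length of up to 1000 bases, 30.6% were listed as lower (15 of 49), beside 8.83% of all protein-coding genes of that length. The share was 47.8% (33 of 69) between 1000 and 2000 bases, 52.5% (31 of 59) between 2000 and 4000 bases and 57.1% (4 of 7) above 4000 bases, beside 13.8%, 18.6% and 25.5% of all protein-coding genes. The genes in neither list were also the shorter ones within some families, but not within all. In the snRNP family the median coding length was 1018.5 bases for listed genes and 573 bases for those in neither list, and in the LSM family it was 870 and 366 bases. The SF3 genes in neither list (Sf3b4, Sf3b5 and Sf3b6) had a median of 375 bases, whereas the listed ones had 2503.5 bases. The order was reversed for the hnRNP genes, with 1303.5 bases for listed genes and 1467 bases for those in neither list. It was also reversed for the DHX genes (3132 and 3435 bases) and the SR protein genes (759 and 792 bases).

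Taken by reads alone, the 84 members had a median of 6.67 log2 CPM, beside 6.39 for all 2906 lower genes and 5.57 for all 533 higher genes. Of the 83 lower members, 51 were above the median of the lower genes and 29 above their upper quartile. Per kilobase, the members had a median of 4.19 on the log2 scale of CPM per kb, beside 3.95 for the lower genes, 4.81 for the translation factors and 7.80 for the ribosomal protein genes. The members were thus expressed slightly above the typical lower gene and far below the ribosomal proteins. Among genes whose coding sequence shares no stretch of 50 bases with another gene, the medians per kilobase were 3.96 for 37 lower members and 3.87 for 1871 lower genes (a difference of 0.093, where it was 0.25 over all genes). All members added up to 12129 CPM. The lower members, 2.86% of the lower genes, held 3.15% of the summed CPM of that list.

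**Figure D2:**
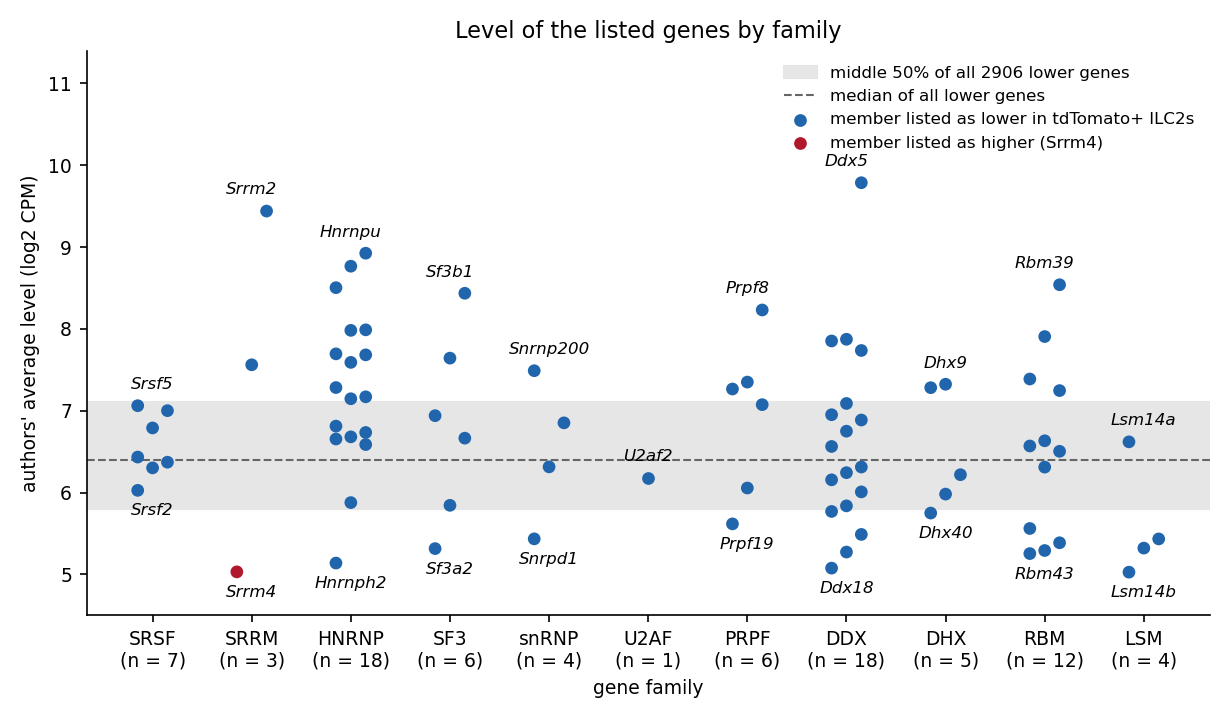
Points show the authors' average level (log2 CPM, all libraries of the comparison together, no error available) of each of the 84 members by family, with the highest and lowest gene of each family named. The grey band and dashed line give the middle 50% and the median (6.39) of all 2906 lower genes; blue points are members listed as lower and the red point, Srrm4, is the member listed as higher.

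The SR proteins (SRSF genes) bind enhancers in exons through RNA recognition motifs and recruit the U1 and U2 machinery through domains rich in arginine and serine. Those listed as lower were Srsf1, Srsf2, Srsf3, Srsf5, Srsf6, Srsf7 and Srsf11, whereas Srsf4, Srsf9, Srsf10 and Srsf12 were in neither list. Srsf5 had an average of 7.06 log2 CPM, or 33.5 CPM per kb. Srsf3, the smallest SR protein, had 7.00 log2 CPM, or 16.2 CPM per kb. Srsf11, a relative that binds the U2AF machinery, had 6.79 log2 CPM, or 13.1 CPM per kb. At the lower end by reads were Srsf1, a founding member of the family that also acts in export and translation, with 6.30 log2 CPM (13.8 CPM per kb), and Srsf2, with 6.03 log2 CPM (22.1 CPM per kb). The range of the family by reads, from 6.03 to 7.06, was the narrowest of the families with 6 or more listed genes. Per exonic length the order changed, with Srsf2 above Srsf3. Per coding length Srsf3 was above Srsf2, with 8.02 and 6.62 on the log2 scale.

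The SRRM proteins are long proteins rich in arginine and serine without the RNA recognition motif of the SR proteins. Srrm2, a scaffold of nuclear speckles where splicing factors are stored, was listed as lower with 9.44 log2 CPM, or 54.1 CPM per kb. Srrm1, a coactivator that bridges SR proteins and snRNPs, was listed as lower with 7.56 log2 CPM, or 25.9 CPM per kb. Srrm4, known as the regulator of microexons in neurons, was the only member on the list of higher genes. It had 5.03 log2 CPM, or 3.77 CPM per kb, the lowest level per exonic length of all 84 members. Per coding length it had 4.16 on the log2 scale, above Rbm10 (3.81), Ddx18 (4.09) and Ddx54 (4.10). The 5.03 log2 CPM of Srrm4 lay close to the limit of 5 below which no gene was listed. Its paralog Srrm3 was in neither list. Srrm4 spans 152.54 kb at chr5:116439275-116591817 (GRCm38), beside a median span of 19.1 kb for the members and 149.2 kb for the list of higher genes.

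The hnRNP proteins coat nascent transcripts and often act against SR proteins. The genes listed as lower were Hnrnpa0, Hnrnpa1, Hnrnpa2b1, Hnrnpa3, Hnrnpab, Hnrnpc, Hnrnpd, Hnrnpdl, Hnrnpf, Hnrnph1, Hnrnph2, Hnrnpk, Hnrnpl, Hnrnpll, Hnrnpm, Hnrnpu, Hnrnpul1 and Hnrnpul2, and only Hnrnph3 and Hnrnpr were in neither list. Hnrnpu, a scaffold protein that binds both RNA and chromatin, had 8.93 log2 CPM, or 41.9 CPM per kb. Hnrnpa2b1 had 8.77 log2 CPM, or 66.2 CPM per kb. Hnrnpa3 had 8.50 log2 CPM, or 67.3 CPM per kb, but 97.7% of its coding windows of 50 bases also occur in other genes. The lowest by reads were Hnrnpa0, an intronless gene that binds AU-rich RNA, with 5.88 log2 CPM (22.0 CPM per kb) and the X-linked Hnrnph2 with 5.14 log2 CPM (8.06 CPM per kb). Hnrnpll, which represses the variable exons of CD45 in activated lymphocytes, was named for this role after its value was seen and had 6.81 log2 CPM, or 9.63 CPM per kb. It was thus among the lowest of the family per exonic length, whereas its paralog Hnrnpl had 26.2 CPM per kb. Per coding length the pair was closer, with 5.99 for Hnrnpll and 6.40 for Hnrnpl on the log2 scale. The median of the family per kilobase, 4.87 on the log2 scale, was above that of all lower genes (3.95).

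The SF3A and SF3B proteins are the core of the U2 snRNP that recognises the branch point of an intron. Sf3a1, Sf3a2, Sf3a3, Sf3b1, Sf3b2 and Sf3b3 were listed as lower, so all 3 subunits of SF3A were on the list. Sf3b1, the subunit that clamps the branch point, had 8.44 log2 CPM, or 30.5 CPM per kb. Sf3b2 followed with 7.64 log2 CPM (29.3 CPM per kb) and Sf3b3 with 6.94 log2 CPM (11.2 CPM per kb). The lowest by reads were Sf3a3 with 5.84 log2 CPM (20.6 CPM per kb) and Sf3a2 with 5.32 log2 CPM (15.0 CPM per kb). Although these proteins are held in a single particle, the levels per length of the 6 genes spread from 11.2 to 30.5 CPM per kb.

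Among the snRNP proteins, 4 genes were listed as lower. Snrnp200, the helicase that unwinds U4 from U6 RNA, had 7.49 log2 CPM, or 23.0 CPM per kb. Snrnp70, the U1 protein that contacts the 5′ splice site complex, had 6.85 log2 CPM, or 15.2 CPM per kb. Of the 7 Sm proteins, which form the ring on U1, U2, U4 and U5 RNA, Snrpb had 6.31 log2 CPM (40.3 CPM per kb) and Snrpd1 had 5.43 log2 CPM (21.1 CPM per kb). The remaining Sm genes (Snrpd2, Snrpd3, Snrpe, Snrpf and Snrpg) and the genes of U1 and U2 proteins Snrpa, Snrpc, Snrpa1 and Snrpb2 were in neither list, as were Snrnp25, Snrnp27, Snrnp35, Snrnp40, Snrnp48 and Snrpn. U2af2, the large subunit of the factor that binds the polypyrimidine tract, was listed as lower with 6.18 log2 CPM (17.6 CPM per kb), whereas its partner U2af1 and U2af1l4 were in neither list.

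The PRPF genes were named after yeast mutants that fail to process precursor RNA. Prpf8, the protein at the catalytic centre of the spliceosome, had 8.23 log2 CPM, or 40.3 CPM per kb, and was listed as lower, as were Prpf4b, Prpf6, Prpf19 and Prpf38b. The kinase gene Prpf4b had 7.27 log2 CPM, or 18.3 CPM per kb. At the lower end, Prpf6, a bridge within the particle of U4, U5 and U6, had 6.06 log2 CPM (17.2 CPM per kb) and Prpf19, a ubiquitin ligase of the activated spliceosome, had 5.62 log2 CPM (6.75 CPM per kb). Among the genes in neither list were Prpf18 and those of the U4 and U6 proteins Prpf3, Prpf4 and Prpf31.

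The DDX proteins are helicases with the DEAD box and act in splicing, export, translation and ribosome assembly. Ddx5 had 9.79 log2 CPM, or 153 CPM per kb, which was the highest level of all members on both scales, but 44.4% of its coding windows of 50 bases also occur in other genes, mostly in a processed pseudogene. Its paralog Ddx17, with which it shares many functions in splicing and transcription, had 7.87 log2 CPM, or 30.7 CPM per kb. Ddx6, a helicase of P-bodies that represses translation and promotes decay, had 7.85 log2 CPM, or 28.8 CPM per kb. The lowest by reads were Ddx39a, an export factor, with 5.27 log2 CPM (7.50 CPM per kb), and Ddx18, a helicase of ribosome assembly, with 5.08 log2 CPM (13.6 CPM per kb). The other spliceosomal or splicing-associated helicases of this family on the list of lower genes were Ddx23, Ddx42 and Ddx46, and the export helicases were Ddx19a and Ddx39b. Those known from the nucleolus were Ddx10, Ddx21, Ddx24, Ddx27, Ddx50 and Ddx54, and the remaining members were the translation helicases Ddx3x and Ddx3y. In neither list were 19 genes, among them Ddx20 of the SMN complex, Ddx41 and the innate RNA sensor gene Ddx58.

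Several DHX helicases drive the late steps of splicing. Dhx9, a helicase that resolves structured RNA, had 7.32 log2 CPM, or 16.7 CPM per kb. Dhx15, which takes the spliceosome apart after the reaction, had 7.28 log2 CPM, or 18.3 CPM per kb. Dhx38 had 6.22 log2 CPM (15.0 CPM per kb) and Dhx16 had 5.98 log2 CPM (15.4 CPM per kb), both of which remodel the spliceosome around the catalytic steps. Dhx40 had 5.75 log2 CPM, or 12.7 CPM per kb. Per exonic length the 5 genes lay within a narrow range, from 12.7 to 18.3 CPM per kb. Per coding length they ranged from 4.33 (Dhx16) to 6.03 (Dhx15) on the log2 scale, so the narrow range depended on the length used. All 5 were listed as lower. Dhx8, which acts in the release of the spliced transcript, was in neither list.

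RBM is a name given to proteins with an RNA recognition motif and joins unlike functions. Rbm39, a relative of U2AF2, had 8.54 log2 CPM, or 53.6 CPM per kb. Rbm25, a splicing factor associated with U1, had 7.91 log2 CPM, or 13.8 CPM per kb. Rbm5, a regulator of exon choice in apoptosis genes, had 7.39 log2 CPM, or 10.9 CPM per kb. The lowest by reads were its paralog Rbm10 with 5.29 log2 CPM (10.6 CPM per kb) and Rbm43 with 5.25 log2 CPM (14.5 CPM per kb). Rbm3, Rbm7, Rbm17, Rbm26, Rbm27, Rbm33 and Rbm38 were listed as lower as well, of which Rbm17 is a branch-site splicing factor, Rbm7 a subunit of a nuclear exosome adaptor and Rbm3 a cold-induced protein. The 27 annotated RBM genes in neither list included Rbm22, a protein of the catalytic spliceosome, and Rbm8a of the exon junction complex.

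The LSM genes encode relatives of the Sm proteins. Lsm6 of the ring on U6 RNA had 5.43 log2 CPM, or 10.6 CPM per kb, and was the only listed gene of that ring, since Lsm2, Lsm3, Lsm4, Lsm5, Lsm7 and Lsm8 were in neither list. Lsm12 had 5.32 log2 CPM, or 16.7 CPM per kb. The P-body proteins Lsm14a and Lsm14b, which are not splicing factors, had 6.62 log2 CPM (16.0 CPM per kb) and 5.03 log2 CPM (11.3 CPM per kb). Per exonic length, the LSM family had the lowest median of the families, 3.75 on the log2 scale. Per coding length its median was 6.12, and the lowest was that of the DHX family with 4.53.

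**Figure D3:**
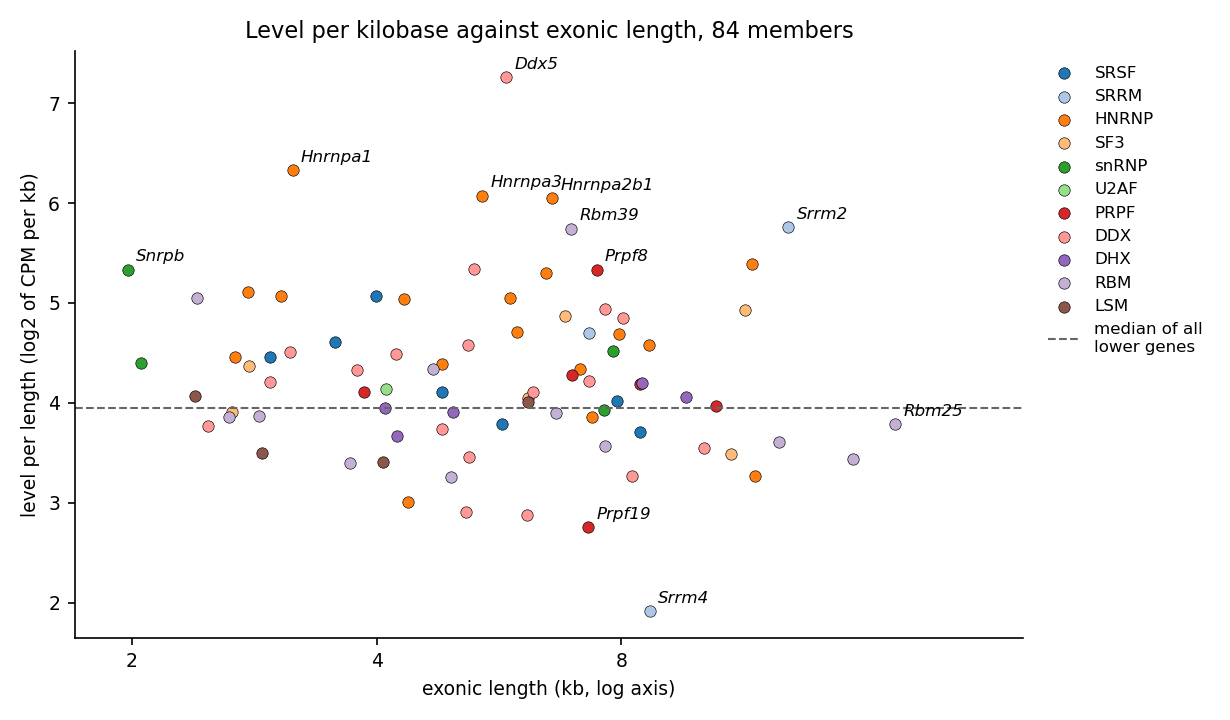
Each point is 1 of the 84 members, with its exonic length in kb (log axis) against its level per length (log2 of CPM per kb, the authors' average divided by exonic length), coloured by family. Ddx5 (7.26) lies above all other members and Srrm4 (1.91), the member listed as higher, below them; the dashed line is the median of all lower genes (3.95).

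Other genes of the splicing pathway that the symbol rule leaves out were taken from 6 lists by function. Of these 150 genes, 84 were listed as lower, 0 as higher and 66 in neither list, with a median of 6.33 log2 CPM and of 3.95 on the log2 scale of CPM per kb. Of all protein-coding genes 13.2% were listed as lower, and of all listed genes 84.5% were. The SR protein kinases and SR-related proteins were the most often listed, with 26 of 29 lower. They were led by reads by Son, a speckle scaffold, with 8.90 log2 CPM (5.00 on the log2 scale per kb). Luc7l2, a U1-associated protein, had 8.11 log2 CPM and 4.51 per kb. Acin1 had 7.63, Bclaf1 7.62 and Scaf11 7.54 log2 CPM, and the CLK kinases Clk1, Clk2, Clk3 and Clk4, which phosphorylate SR proteins, were all listed as lower.

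Of the other splicing regulators, 27 of 37 were listed as lower, and for this and the lists below the share of all protein-coding genes was 13.2%. Mbnl1, which sets developmental exon choices, had 9.11 log2 CPM and 4.89 on the log2 scale per kb, and Ybx1, an abundant RNA-binding protein, had 8.37 log2 CPM and 7.03 per kb. Celf2 (7.90 log2 CPM), Sfpq (7.75 log2 CPM) and Ptbp3 (7.74 log2 CPM) followed by reads. Esrp1, Rbfox2 and Mbnl2, which are best known from epithelium, neurons and muscle, were among the 10 in neither list. Listing was less complete for the U2 and B complex proteins (9 of 17, led by Eftud2 with 6.71, Puf60 with 6.64, Ik with 6.58, Dnajc8 with 6.33 and Sart3 with 6.03 log2 CPM) and for the exon junction, cap and export proteins (10 of 25). The latter were led by Thoc2 (7.22 log2 CPM), Nup98 (7.15), Upf1 (6.29), Nxf1 (6.24) and Chtop (5.95). The lowest shares were those of the Prp19 complex and the proteins of the catalytic steps with 8 of 24 (Cdc5l 6.55, Syf2 6.22, Slu7 6.21, Snw1 5.88 and Cwc15 5.85 log2 CPM) and of the SMN complex and snRNP assembly with 4 of 18 (Ssb 6.63, Strap 5.99, Mepce 5.43 and Prmt5 5.27 log2 CPM). Smn1 itself and Gemin2, Gemin4, Gemin5, Gemin6, Gemin7 and Gemin8 were on neither the lower nor the higher list.

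Many splicing factors control their own amount by splicing their transcripts into forms that are destroyed by nonsense-mediated decay, often through so-called poison exons. The counts of the authors are per gene and do not tell these forms from coding ones. In the annotation, 45.2% of the members (38 of 84) have a transcript marked for nonsense-mediated decay, beside 29.3% of all lower genes, and 78.6% (66 of 84) have a transcript with a retained intron, beside 67.3%. Both kinds are annotated for 42.9% of the members and 24.5% of the lower genes. All 7 SR protein genes, all 3 SRRM genes and U2af2 have both, whereas decay transcripts are annotated for 1 of 6 SF3 genes and 3 of 18 DDX genes. The median number of annotated transcripts was 6.5 for members and 6 for lower genes. Hnrnpk has the most with 34 transcripts, of which 13 are marked as having a retained intron.

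**Figure D4:**
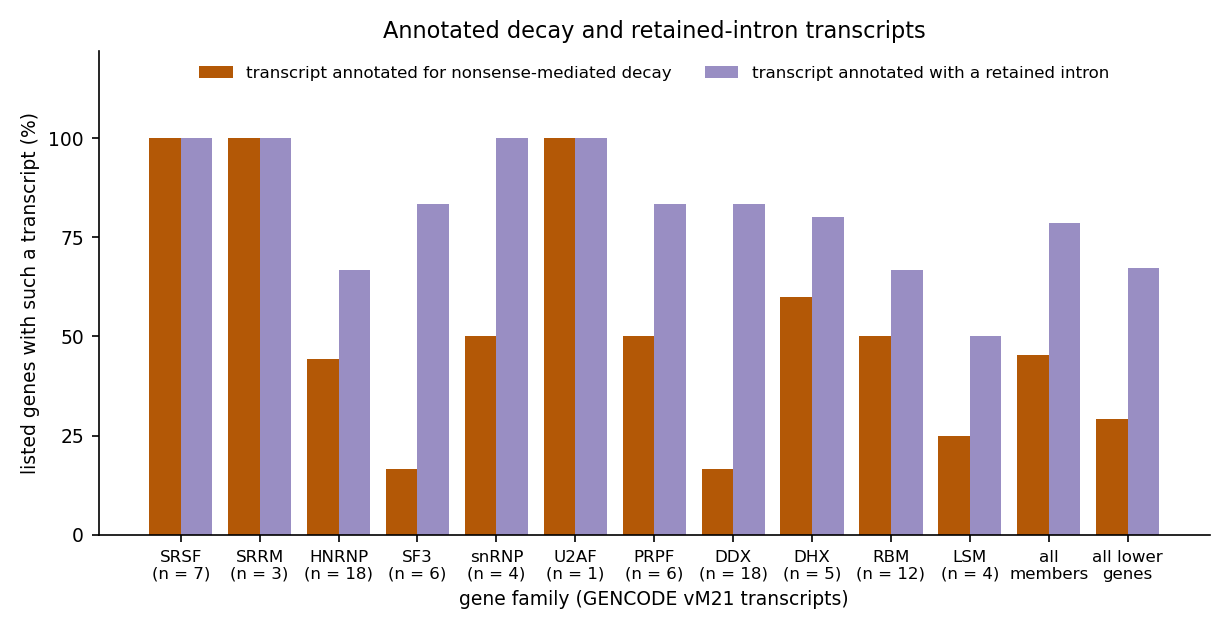
Bars show the percentage of listed genes of each family, of all 84 members and of all lower genes that have an annotated transcript marked for nonsense-mediated decay (orange) or with a retained intron (violet). All SRSF, SRRM and U2AF genes have both, while 45.2% of members and 29.3% of lower genes have a decay transcript.

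Whether the counts of a member belong to it alone depends on its copies in the genome and on the genes that overlap it. How the authors' counting treated reads with more than 1 place, or reads in overlapping genes, is not given in the sources used here. In 25 of the 84 members (29.8%) more than 10% of all coding windows of 50 bases were also found in transcripts of another gene, beside 19.6% of all lower genes, and no window was shared in 38 members (45.2%) and 64.5% of lower genes. For 20 of these 25 members the gene that shared most was a pseudogene. For Srsf2 (Mfsd11), Ddx54 (Gm43579), Hnrnpd (Gm17092) and Hnrnpul2 (AC129217.1) it was a gene with exons that overlap those of the member. Such shared bases can lie at 1 place in the genome. Above 50% were Hnrnpa3 (97.7%), Hnrnpf (96.1%), Srsf3 (89.4%), Rbm3 (87.9%), Hnrnpa1 (80.8%), Hnrnpk (75.1%), Ddx18 (71.6%), Rbm10 (56.4%), Srsf5 (55.2%), Hnrnph2 (55.1%) and Lsm12 (51.5%). Hnrnpa3 alone shared windows with 43 other genes, of which 41 were pseudogenes. The levels of all 25 genes, Ddx5 with 44.4% among them, are uncertain, and those of these 11 the most. Srrm4, Hnrnpu, Sf3b1, Prpf8 and Snrnp200 shared no coding window. Only coding bases were searched, which are 2400 of 11599 exonic bases in Hnrnpu and 7005 of 7461 in Prpf8. Sharing in the other exonic bases is unknown. Exons of another gene cover at least 10% of the exonic length of 7 members, which are Hnrnpab (29.1%), Ddx39a, Sf3a2, Srsf2, Hnrnpm, Ddx54 and Hnrnpf. Reads of the overlapping genes could be mixed there where strand was not used, and in Hnrnpm, whose neighbour March2 lies on the same strand, also where it was.

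Ddx3x and Ddx3y are close relatives with few such windows. They encode a translation helicase on the X chromosome (chrX:13280970-13294052) and its counterpart on the Y chromosome (chrY:1260771-1286629, both GRCm38), and both were listed as lower in the cells of these male mice. The average was 7.74 log2 CPM (40.4 CPM per kb) for Ddx3x and 5.84 log2 CPM (11.0 CPM per kb) for Ddx3y, values that were picked for their position after they were seen. Of 1971 aligned coding bases 84.6% are identical, but the longest identical run has 35 bases, so that no aligned window of 50 bases is shared between them. In the search of all transcripts, Ddx3y shared no window with any other gene. Ddx3x shared 0.83% of its windows, with a processed pseudogene. To show how they differ, 120 aligned coding bases of the reference transcripts (GENCODE M21) are given, bases 83 to 202 of Ddx3x and 86 to 205 of Ddx3y counted from the start codon, with the 20 differing bases in capitals.
Ddx3x: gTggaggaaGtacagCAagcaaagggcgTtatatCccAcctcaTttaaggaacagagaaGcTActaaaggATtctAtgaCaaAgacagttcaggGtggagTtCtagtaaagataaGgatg
Ddx3y: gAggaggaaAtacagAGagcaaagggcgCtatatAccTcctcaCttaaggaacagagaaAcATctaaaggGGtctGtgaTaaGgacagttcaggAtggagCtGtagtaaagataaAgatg

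Among other paralogs, the coding sequences were identical at 85.4% of aligned bases for Hnrnph1 and Hnrnph2, 81.7% for Ddx39a and Ddx39b, 77.6% for Hnrnpf and Hnrnph1 and 77.3% for Hnrnpa1 and Hnrnpa3. Levels per length differed within some of these pairs, with 33.0 CPM per kb for Hnrnph1 and 8.06 for Hnrnph2, and with 20.0 for Ddx39b and 7.50 for Ddx39a. They were closer in the others, with 33.7 CPM per kb for Hnrnpf beside 33.0 for Hnrnph1, and with 80.2 for Hnrnpa1 beside 67.3 for Hnrnpa3. The genes are spread over 20 chromosomes, with 12 on chromosome 2, 10 on chromosome 11, 4 on the X and 1 on the Y chromosome. Only 2 pairs lie within 100 kb of each other, Ddx21 and Ddx50 on chromosome 10 (a gap of 13.6 kb) and Hnrnpd and Hnrnpdl on chromosome 5 (54.6 kb).

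Since nearly all members were listed in the same direction, their promoters were compared with those of other genes. RefSeq windows of 300 bases (GRCm38.p6, from 250 bases before to 50 bases after a gene start) were at hand for 71 of the 84 members and 2329 of the lower genes. A window was called CpG-rich where the observed number of CpG dinucleotides was more than 0.6 of that expected from its bases. This held for 95.8% of the members, beside 78.0% of the lower genes and 35.6% of all 27025 genes with a window. The letters CCGGAAG, which ETS factors recognise, were found on either strand in 33.8% of the members (24 of 71), beside 21.0% of the lower genes and 9.93% of all genes. The letters GCGCATGCG of the NRF1 site were found in 7.04% of the members (5 of 71), beside 4.77% and 1.95%, and the letters CTCGCGAG in 5.63%, beside 3.09% and 1.04%. The GC box GGGCGG was found in 70.4% of the members and 75.9% of the lower genes, the YY1 letters AAGATGGCG in 2.82% and 4.12%, and the E box CACGTG in 12.7% and 12.3%. The CCAAT box was more frequent in the members (52.1%) than in the lower genes (41.8%) or all genes (41.1%), and the TATA box TATAAA was found in 14.1% of the members, 8.97% of the lower genes and 15.7% of all genes. These are matches of letters, not measured binding, and CpG-rich windows hold letters with CG more readily. The ETS and YY1 letters can overlap by AAG, and the NRF1 letters can match both strands at the same place.

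**Figure D5:**
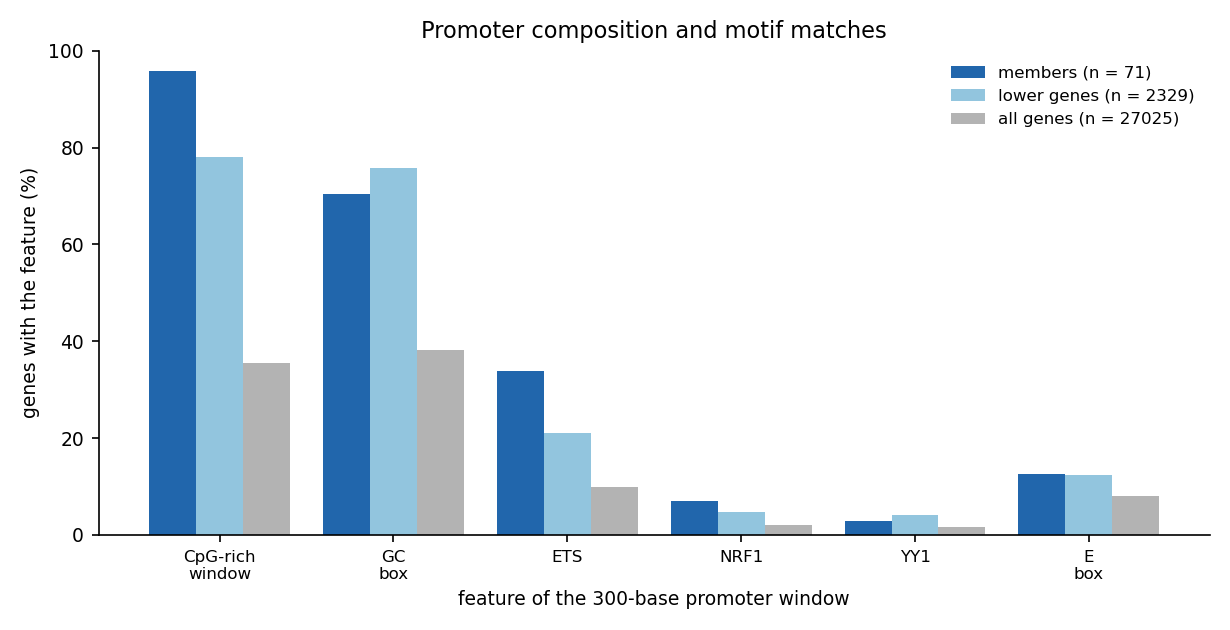
Bars show the percentage of genes whose promoter window of 300 bases is CpG-rich or holds the letters of a named motif on either strand, for 71 members, 2329 lower genes and all 27025 genes with a window. The members exceed the lower genes for CpG-rich windows (95.8% and 78.0%) and for the ETS letters (33.8% and 21.0%) but not for the GC box (70.4% and 75.9%).

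The ETS letters were unevenly spread among the families. They were found in 5 of 6 SF3 genes, 3 of 5 PRPF genes with a window, 7 of 15 DDX genes and 3 of 7 SR protein genes, in 2 of 4 DHX genes and 1 of 2 snRNP genes, but in 2 of 16 hnRNP genes, 1 of 10 RBM genes, 0 of 3 SRRM genes and 0 of 3 LSM genes. In 17 of the 24 members with the letters (70.8%) they began within 100 bases before the start or after it, beside 75.6% of the lower genes with the letters. The windows of the 5 SF3 genes are shown because they encode parts of the same particle and carry the letters at unlike places. The ETS letters stand in capitals in each, as CCGGAAG or, on the reverse strand, as CTTCCGG. They begin 7 bases before the start in Sf3a1 (chr11:4160104-4160403, plus strand), 76 bases before it in Sf3a2 (chr10:80798485-80798784, plus strand) and 90 bases before it in Sf3a3 (chr4:124714611-124714910, plus strand). In Sf3b2 (chr19:5295406-5295705, minus strand) they begin 13 bases and in Sf3b3 (chr8:110846754-110847053, minus strand) 229 bases before the start. The further capitals are the YY1 letters on the reverse strand in Sf3a1 and TATAAA in Sf3b3.
Sf3a1: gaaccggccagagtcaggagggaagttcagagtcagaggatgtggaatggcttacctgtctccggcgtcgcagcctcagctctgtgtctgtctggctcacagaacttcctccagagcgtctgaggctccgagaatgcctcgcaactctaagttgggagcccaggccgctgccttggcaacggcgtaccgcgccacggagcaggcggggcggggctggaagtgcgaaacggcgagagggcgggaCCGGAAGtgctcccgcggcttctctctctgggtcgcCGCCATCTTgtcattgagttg
Sf3a2: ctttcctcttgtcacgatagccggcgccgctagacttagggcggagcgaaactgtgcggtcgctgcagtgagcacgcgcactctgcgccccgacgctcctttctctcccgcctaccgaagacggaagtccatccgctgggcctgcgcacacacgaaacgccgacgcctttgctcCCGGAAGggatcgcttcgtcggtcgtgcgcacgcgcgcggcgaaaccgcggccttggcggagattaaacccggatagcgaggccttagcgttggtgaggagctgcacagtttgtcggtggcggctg
Sf3a3: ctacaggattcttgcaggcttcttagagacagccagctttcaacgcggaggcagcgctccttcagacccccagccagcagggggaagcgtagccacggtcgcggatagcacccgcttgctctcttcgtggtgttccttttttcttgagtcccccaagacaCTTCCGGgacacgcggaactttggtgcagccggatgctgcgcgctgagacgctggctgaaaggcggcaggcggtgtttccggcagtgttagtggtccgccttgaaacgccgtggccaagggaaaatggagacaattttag
Sf3b2: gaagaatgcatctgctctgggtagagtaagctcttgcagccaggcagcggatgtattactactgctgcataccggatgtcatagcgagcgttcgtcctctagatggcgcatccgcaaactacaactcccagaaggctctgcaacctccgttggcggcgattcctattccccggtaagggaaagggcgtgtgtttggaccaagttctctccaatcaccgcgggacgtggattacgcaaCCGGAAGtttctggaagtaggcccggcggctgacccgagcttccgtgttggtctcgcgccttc
Sf3b3: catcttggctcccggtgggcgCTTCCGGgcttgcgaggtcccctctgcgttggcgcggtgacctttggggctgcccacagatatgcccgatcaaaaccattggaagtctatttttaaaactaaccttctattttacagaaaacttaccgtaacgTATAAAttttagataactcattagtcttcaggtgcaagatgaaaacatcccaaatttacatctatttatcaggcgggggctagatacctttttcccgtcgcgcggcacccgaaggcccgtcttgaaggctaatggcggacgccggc

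Sf3b1, the SF3 gene with the highest level per length, had no such letters in its window. The NRF1 letters were found in Hnrnph1, Snrnp70, Srrm1, Srsf7 and Srsf11. The windows of Snrnp70, Srsf7 and Srsf11 are shown because Snrnp70 (chr7:45395693-45395992, minus strand) holds the NRF1 letters at 4 separate places and because the other two hold both the NRF1 and the ETS letters. In Srsf7 (chr17:80207256-80207555, minus strand) the ETS letters begin 218 bases and the NRF1 letters 65 bases before the start. In Srsf11 (chr3:158031699-158031998, minus strand) the ETS letters begin 42 bases and the NRF1 letters 28 bases before the start. The window of Srsf3 (chr17:29032410-29032709, plus strand) is given as a contrast, since it has neither but holds TATAAA from 18 bases before the start. Capitals mark these letters, and a run of 10 capitals is a place where the NRF1 letters match both strands.
Snrnp70: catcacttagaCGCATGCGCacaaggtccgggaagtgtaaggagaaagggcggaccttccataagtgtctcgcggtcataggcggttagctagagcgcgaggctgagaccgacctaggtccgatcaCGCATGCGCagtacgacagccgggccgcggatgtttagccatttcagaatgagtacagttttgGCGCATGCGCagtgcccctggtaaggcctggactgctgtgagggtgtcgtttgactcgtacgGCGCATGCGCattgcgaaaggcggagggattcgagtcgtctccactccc
Srsf7: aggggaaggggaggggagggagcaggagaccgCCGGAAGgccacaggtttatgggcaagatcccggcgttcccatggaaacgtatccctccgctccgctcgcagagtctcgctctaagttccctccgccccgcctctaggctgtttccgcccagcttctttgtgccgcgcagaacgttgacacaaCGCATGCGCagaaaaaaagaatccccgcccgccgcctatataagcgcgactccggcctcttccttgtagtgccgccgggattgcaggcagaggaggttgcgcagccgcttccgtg
Srsf11: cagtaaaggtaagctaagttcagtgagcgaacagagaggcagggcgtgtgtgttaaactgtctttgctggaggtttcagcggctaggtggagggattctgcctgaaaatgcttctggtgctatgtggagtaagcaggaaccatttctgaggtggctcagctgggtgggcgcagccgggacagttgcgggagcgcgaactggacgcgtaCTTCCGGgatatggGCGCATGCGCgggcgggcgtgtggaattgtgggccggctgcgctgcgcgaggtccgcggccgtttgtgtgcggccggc
Srsf3: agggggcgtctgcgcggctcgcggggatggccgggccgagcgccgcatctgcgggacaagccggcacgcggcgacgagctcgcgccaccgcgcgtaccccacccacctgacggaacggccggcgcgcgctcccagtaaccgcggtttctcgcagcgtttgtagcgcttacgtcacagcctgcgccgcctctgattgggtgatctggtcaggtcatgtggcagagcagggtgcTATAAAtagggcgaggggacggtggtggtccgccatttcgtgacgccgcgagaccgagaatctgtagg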

How the data were processed

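ILC2s were sorted from male mice given papain and tamoxifen, and their RNA was turned into libraries with a stranded SMART kit for low input. After a quality check in FASTP the authors mapped the paired reads with STAR to GRCm39 and counted reads per gene of Ensembl release 104 with featureCounts (Subread package), and edgeR served for the comparison. Versions of these tools, and whether strand was used when counting, are not given in the sources used here. The submitters' processing notes name mm10.

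The deposited lists give, per gene, the authors' average log2 CPM over the libraries of their comparison, and this log2 value was the only measurement used. The lists further hold the authors' log2 fold change, likelihood ratio, p-value and false discovery rate, which are the outcome of their own comparison and were not used. No list holds values of single libraries, so the planned description had no test, and the depth of each library is unknown. Since a count behind a value is not known either, no interval or detection limit is given.

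Members were found by symbol. Values were given for all members of families with at most 5 listed genes, for the 3 highest and 2 lowest by average log2 CPM of larger families, for the member on the list of higher genes and for the 5 highest of each pathway list. The values of 1 such gene are not reported here. Other values were chosen after being seen, as stated. The members and lists were chosen with earlier results of these data known. Gene models (exonic length as the union of exons, coding length of the longest coding transcript, transcript types and overlaps with bedtools 2.31.1) came from GENCODE M21 on GRCm38, matched by Ensembl identifier for all 84 members, and promoters from RefSeq on GRCm38.p6, matched by symbol or Entrez identifier. No coordinate on GRCm39 is given. Windows of 50 coding bases were searched on both strands in all annotated transcripts. Paralogs sharing at least 60 words of 12 bases were aligned with Biopython 1.88. Other steps used Python 3.11.15, pandas 2.3.3 and numpy 2.4.6. The motif search, the window search and the scaling by length were tested on simulated data. Protein features that had been planned were not analysed here. Alternatives were a higher level limit, fewer families, the mean, coding length and another promoter background.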

Additional observations from a re-analysis of the deposited data

How the results depend on the processing

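No paired analysis was possible because the lists hold no value of a single library, and for the same reason no library could be left out in turn. Of 14 alternatives, 10 gave a value within 1.5 times that reported, where log2 levels and their differences were compared as unlogged CPM. That limit is wider than the 0.25 by which the members exceeded all lower genes per kilobase. It therefore cannot show whether this difference was kept, although its alternatives are among the 10. Without the RBM, DDX and DHX families, 48 members were listed as lower in place of 83. Per coding length in place of exonic length, the median level of the members was 6.02 on the log2 scale of CPM per kb in place of 4.19, as coding lengths are shorter, and the difference from all lower genes was 0.348 in place of 0.25. Ranks also changed, and the family with the lowest median was then DHX in place of LSM. Against the listed lower genes in place of all genes, the excess of members with the ETS letters was 12.9 percentage points in place of 23.9, and that of members with a CpG-rich window 17.8 in place of 60.2. Among genes that share no window with another gene, chosen after seeing the data, the difference in level per kilobase was 0.093 on the log2 scale in place of 0.25. The median of 6.67 log2 CPM lay between 6.66 and 7.06 under the other choices. The unknown depth limits what can be said of the genes near the lower limit, such as Srrm4 and Lsm14b.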

Other observations

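Of the 84 members, 2 (2.38%) hold annotated small nucleolar RNA genes within their introns or exons on the same strand, beside 3.48% of all lower genes. These are Ddx39b with 2 and Sf3b3 with 2, and the other helicases and splicing factors hold 0. The 5 members with the most reads (Ddx5, Srrm2, Hnrnpu, Hnrnpa2b1 and Rbm39) held 23.7% of the summed CPM of all members.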
